A study of Mus musculus with 4 samples.

Results

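The cells described here carried marker genes of tendon fibroblasts and were picked by these genes from 4 single-cell RNA-seq libraries of the amputated mouse digit tip. They are called tendon cells by that rule alone. A barcode was kept when it held 200 to 5500 genes, at most 30000 unique molecular identifiers (UMIs, the counted RNA molecules) and at most 10% of them from mitochondrial genes. A kept cell was a member when it held at least 5 UMIs of Col1a1, the main chain of fibrillar collagen, and at least 1 UMI in 2 or more of the 4 marker genes Tnmd, Scx, Mkx and Thbs4. Cells with 3 or more of 7 osteoblast lineage markers (Sp7, Bglap, Bglap2, Ibsp, Dmp1, Phex, Smpd3) or with 3 or more of 5 synovial lining markers (Prg4, Htra4, Col22a1, Clic5, Fbln7) were left out. This gave 1658 tendon cells among 93602 kept cells. The 4 libraries came from female C57BL/6 mice (C57BL/6J in the study's methods) of 6 to 8 weeks, with the digits of 10 mice pooled in each. One pair compared chow with SAR131675, an inhibitor of the lymphatic receptor VEGFR3, at 30 mg per kg of chow for 8 days, with matched control diet. The study's methods describe this chow from 5 days before amputation onward, so how the 8 days relate to the amputation is not clear. In the other pair the lymph nodes of one limb had been removed by surgery (LNR), and the control, named sham in the study, carries the label No treatment. The study describes the opposite limb as the sham side, so the LNR and sham cells may come from the same mice, which the labels do not say. The tip of the last bone, P3, had been amputated on digits 2 and 4, while hindlimb digits 2 to 4 were severed through the phalanx behind it and digested together, so the cells came from more tissue than the regenerating tips. The labels give no day of harvest, and the study's text and legends do not give 1 single day for the diet pair. The libraries carry the batch labels 1 to 4, 1 each, so batch and condition cannot be told apart, and each condition has 1 library and no replicate.

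Tendon fibroblasts make and maintain the parallel collagen I fibrils that join muscle to bone. Scx (scleraxis) and Mkx (mohawk) are transcription factors of the tendon lineage, Tnmd (tenomodulin) is a membrane glycoprotein of maturing tendon cells, and Thbs4 (thrombospondin 4) is a matrix glycoprotein that binds collagen fibrils. Small leucine-rich proteoglycans such as fibromodulin, keratocan and decorin coat the fibrils and govern their thickness, and cartilage oligomeric matrix protein, encoded by Comp, is abundant in tendon and cartilage. In the digit, the flexor and extensor tendons attach close to the P3 bone.

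Members numbered 495 of 29076 kept cells with SAR131675 (1.70%, exact binomial 95% interval 1.56 to 1.86), 358 of 24030 with the control diet (1.49%, 1.34 to 1.65), 411 of 19827 with LNR (2.07%, 1.88 to 2.28) and 394 of 20669 with sham (1.91%, 1.72 to 2.10). The log2 ratio of the shares was 0.19 (-0.01 to 0.39) for SAR131675 against control diet and 0.12 (-0.08 to 0.32) for LNR against sham. All intervals given here cover counting error only, not the spread between animals or libraries, and no test between conditions was possible. Those of UMI counts also leave out the spread between cells. Among cells with at least 5 Col1a1 UMIs the members made up 12.5% and 11.5% in the diet pair and 10.2% in each library of the LNR pair. The diet libraries were deeper, with a median of 11238 and 9427 UMIs per member against 4760 and 4998 in the LNR and sham libraries, and the headers of the diet files name another Cell Ranger version than those of the LNR pair, so differences between conditions were taken only within a pair. Where levels of both pairs are set side by side, depth, software version, batch and treatment cannot be told apart. No barcode was shared between the members of any 2 libraries, while kept cells shared 210 barcodes between the diet libraries and 101 between LNR and sham. The LNR ratio was 0.40 (0.02 to 0.79) in members with 3 or more markers and 0.0016 (-0.20 to 0.20) as a share of Col1a1 cells. The SAR131675 ratio was 0.31 (0.07 to 0.55) when members had to hold at least 20 Col1a1 UMIs, as a share of all kept cells. It was 0.29 (0.11 to 0.46) with no upper limits on genes and UMIs. Cells with at least 3000 UMIs were also thinned to 3000, and members were picked again at 2 or more Col1a1 UMIs. These thinned cells, 226 and 193 members in the diet pair and 236 and 209 in the LNR pair, are meant below where nothing else is said. In them the SAR131675 ratio was -0.11 (-0.39 to 0.18). Without members that carried markers of another cell class the SAR131675 ratio was -0.029 (-0.25 to 0.19).

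The 4 markers were held in unequal parts, and the values in this paragraph describe the choice and are no finding. Tnmd had a UMI in 77.2%, 80.4%, 74.7% and 75.1% of members in the SAR131675, control diet, LNR and sham libraries, the order used for all sets of 4 values here. Scx had a UMI in 24.2%, 19.0%, 46.0% and 42.6%, Mkx in 64.2%, 61.5%, 30.4% and 29.4%, and Thbs4 in 65.7%, 76.8%, 84.7% and 84.0%. In CPM, the members' UMIs of a gene scaled to their summed UMIs, with exact Poisson 95% intervals, Tnmd stood at 588 (569 to 609), 539 (515 to 563), 429 (405 to 454) and 385 (362 to 409). Thbs4 stood at 573, 648, 1135 and 895 CPM, Mkx at 118, 132, 52.2 and 48.1, and Scx at 32.1, 28.6, 106 and 88.1. For each of the 4 markers, the levels of the 2 libraries of a pair lay nearer to each other than to those of the other pair. Most members held 2 markers: 357, 247, 279 and 290 cells, against 121, 87, 117 and 85 with 3 markers and 17, 24, 15 and 19 with all 4. Just outside the rule, 846, 667, 799 and 720 Col1a1 cells held 1 marker, and 9, 10, 23 and 21 cells with 2 or more markers held 4 Col1a1 UMIs, against 13, 10, 17 and 19 at 5.

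A Scx UMI by itself did not mark a tendon cell. In cells with keratinocyte markers, which should lack the gene, it was found in 7.40%, 5.33%, 6.85% and 6.30%, at a median depth of 13054, 12707, 9009 and 8596 UMIs, whereas Tnmd was found in 0.515%, 0.258%, 0.740% and 0.640%. At least 2 of the 4 markers were held by 0.340%, 0.192%, 0.315% and 0.252% of these keratinocyte-marked cells. With SAR131675 and control diet, Scx was found in 1.46% and 0.947% of adventitial fibroblasts and 2.51% and 0.575% of Col1a1 cells of no named class. Both classes, defined below, hold fewer than 2 of the 4 markers by choice. The Scx share was 13.7% and 10.1% in osteoblast lineage and 11.5% and 10.4% in synovial lining cells. In the GENCODE annotation at hand, Scx lies within Bop1 on the opposite strand, and Bop1, a ribosome assembly gene, stood at 14.9, 14.02, 21.6 and 22.2 CPM in members.

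**Figure D1:**
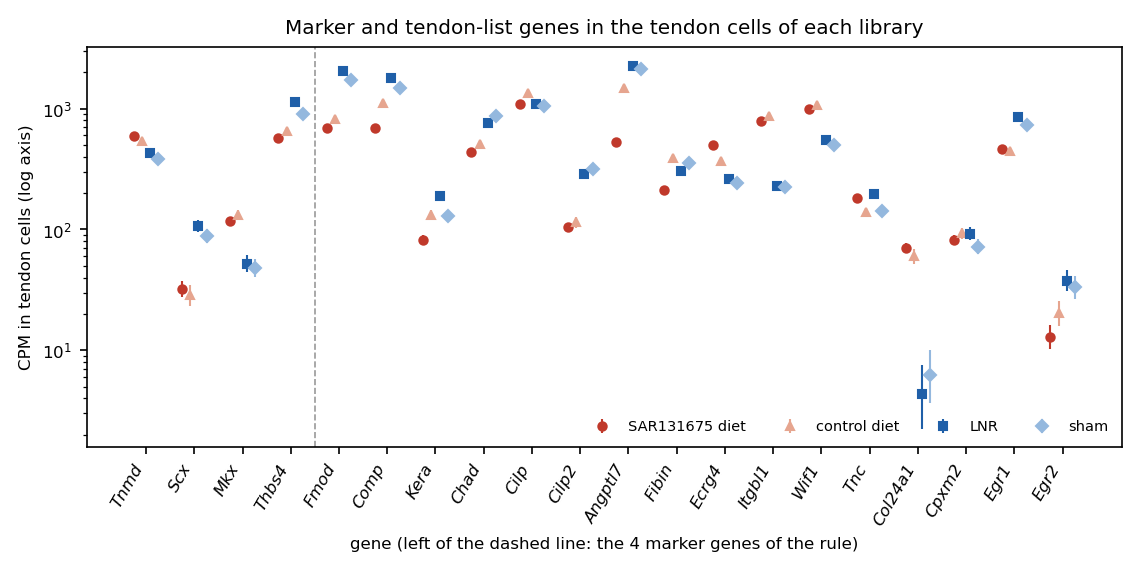
CPM (log axis) of the 4 marker genes and 16 genes of the tendon list in the tendon cells of each library, with exact Poisson 95% intervals as bars. Angptl7 was at 531 with SAR131675 and 1479 with control diet, while Cilp lay between 1045 and 1359.6 in the 4 libraries.

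The label was set beside 17 tendon genes that the rule did not use: Fmod, Comp, Kera, Chad, Cilp, Cilp2, Ptx4, Angptl7, Fibin, Ecrg4, Itgbl1, Egr1, Egr2, Cpxm2, Wif1, Tnc and Col24a1. This list was chosen with earlier results of these data known, so it is no independent check. Only cells with at least 3000 UMIs could be thinned to 3000, here 488, 344, 336 and 321 of the members, which were not picked again. Of these members 74.4%, 73.5%, 87.8% and 81.0% held 3 or more of the genes. The shares were 21.2% to 23.5% in adventitial fibroblasts (Col1a1 cells with 2 or more of Pi16, Dpp4, Sema3c and Anxa3), 24.7% to 34.0% in synovial lining cells, 42.8% to 49.96% in the Col1a1 cells of no named class, and 1.60% to 3.36% in keratinocyte-marked cells. Osteoblast lineage cells held them at 76.8% to 87.0%, a range that overlaps that of the members, so the list set members apart from the other fibroblasts but not from bone-forming cells. Members were not free of other markers: Prg4, the lubricin gene of joint lining and tendon surface, had a UMI in 38.8%, 42.5%, 67.2% and 72.3% of them, and Sema3c in 64.6%, 61.7%, 40.1% and 42.4%. Pi16 had a UMI in 33.3%, 26.8%, 18.0% and 15.5% of members. Each cell was in 1 class only, and a member with 2 or more adventitial markers stayed a member. At least 3 markers of 1 unrelated class, at 2 or more UMIs each, were held by 125, 46, 68 and 87 members, most often keratinocyte markers with 108, 36, 56 and 77. The summed level of the 6 keratinocyte markers in members was 1056, 1479, 5026 and 8266 CPM, and that of the 4 hemoglobin genes was 1184, 224, 864 and 138.

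To see what set the members apart, their summed UMIs were compared with those of 4 other classes of Col1a1 cells in the same libraries by edgeR's quasi-likelihood test, with the library as a block and the genes of every class rule left out of the counts. A gene was called at an adjusted p under 0.05 and a log2 fold of at least 1 in size. The 4 libraries stood in as replicates, although each was of another condition, and since the classes were chosen by genes of the same cells, a gene that goes along with a marker could differ through the choice. Among 13959 genes, 636 (4.56%) were called higher and 445 (3.19%) lower in tendon cells than in adventitial fibroblasts, 796 (5.7%) higher and 576 (4.13%) lower than in osteoblast lineage cells, 937 (6.71%) higher and 614 (4.4%) lower than in synovial lining cells, and 93 (0.666%) higher and 217 (1.55%) lower than in the Col1a1 cells of no named class. Against all 4 classes at once, 48 genes (0.344%) were called higher and 13 (0.0931%) lower. Those counts were 22 and 6 without the control diet library, 37 and 5 without the SAR131675 library, and 4 and 3 with no library block. Against the Col1a1 cells of no named class alone, 35 genes were called higher and 86 lower without the control diet library, 61 and 92 without the SAR131675 library, and 11 and 27 with no library block.

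Kera, which encodes keratocan, had the highest smallest fold against the 4 classes of the genes called higher against each. In the diet pair it had a UMI in 49 of 495 members with SAR131675 and 54 of 358 with control diet, so its level there came from a minority of members. It stood at 81.6, 133, 188 and 129.6 CPM in tendon cells, at 1.36, 6.39, 9.22 and 12.2 in the Col1a1 cells of no named class and at 0 to 1.76 in osteoblast lineage cells, and no library of another class reached a tendon value. Its smallest log2 fold was 4.11, against synovial lining cells (adjusted p = 4.5e-07). Fmod, which encodes fibromodulin, stood at 689, 827, 2058 and 1726 CPM in tendon cells and at 18.2 to 86.5 in adventitial fibroblasts, with a smallest log2 fold of 1.86 against osteoblast lineage cells (adjusted p = 0.00074). It had a UMI in 36.0% of members with SAR131675 and 40.2% with control diet. Fibin, a secreted protein named for its role in fin bud initiation, stood at 211, 389, 304 and 354 CPM, against 58.3 to 109.6 in the unnamed Col1a1 cells, 18.6 to 32.2 in adventitial and 24.9 to 57.8 in synovial lining cells. Its smallest log2 fold was 2.00. Angptl7, a secreted angiopoietin-like protein, had a smallest log2 fold of 2.07, but its values in tendon cells ran from 531 to 2233 CPM and the synovial lining cells of the control diet library reached 619, above the 531 of the tendon cells of the SAR131675 library.

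The other genes with the highest smallest folds were S100a5, a calcium-binding protein (3.15), Gpha2, a glycoprotein hormone subunit (2.90), the transcription factor Creb3l3 (2.42), the potassium channel Kcnn2 (2.39), the endothelin receptor Ednrb (2.13), the growth factor Fgf9 (2.08), Nptx2 (1.94), the transcript Gm26771 (1.84), Gas2 (1.83), Ptchd4 (1.81) and Amhr2, the receptor of anti-Müllerian hormone (1.77). Several differed between the pairs as much as between classes. S100a5 stood at 4.74, 18.7, 142 and 162 CPM in members, and Kcnn2 at 57.7, 42.1, 2.16 and 1.11, so the first was high in the shallower pair and the second in the deeper one. Fgf9 stood at 22.8, 30.5, 49.7 and 51.1 and had a UMI in 43, 46, 84 and 78 members. Creb3l3 and Nptx2 were found in few cells, 27, 5, 6 and 8 and 27, 16, 11 and 10. The genes called higher against every class did not all go together within the members. In the split by a Scx UMI described below, Ednrb was called lower with a Scx UMI, at a log2 fold of -5.12. Adamts18 (-6.88), Lrrc15 (-2.63) and Fbn2 (-2.53), also called higher against every class, went the same way. S100a5 (1.57), Fgf9 (1.68), Kera (1.85) and Fmod (1.61) were called higher with a Scx UMI. The comparison with the classes therefore pooled members that differed in these genes.

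Fewer genes were lower in tendon cells than in every other class. Gdf10, a member of the TGF beta superfamily also named BMP3B, stood at 35.6, 29.7, 37.1 and 24.4 CPM in tendon cells, below 52.1 to 94.3 in synovial lining, 138 to 162 in adventitial and 165 to 252 in the unnamed Col1a1 cells. Its log2 fold nearest 0 was -1.42, and no value of another class fell within the tendon range. Phlda1, whose product binds phospholipids, stood at 43.5, 51.4, 65.5 and 45.2 CPM with a log2 fold nearest 0 of -1.07. Others of the 10 with the largest such fold were Ccdc170 (-2.27), Ildr2 (-1.41), the transcriptional cofactor Lmo2 (-1.39), Cmtm8 (-1.39), the interferon-inducible Ifi204 (-1.28), the phospholipase Plce1 (-1.25) and Csmd1 (-1.19). Lmo2 against osteoblast lineage cells changed sign in the cells thinned to 3000 UMIs, to 1.40 with an adjusted p of 0.0885.

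**Figure D2:**
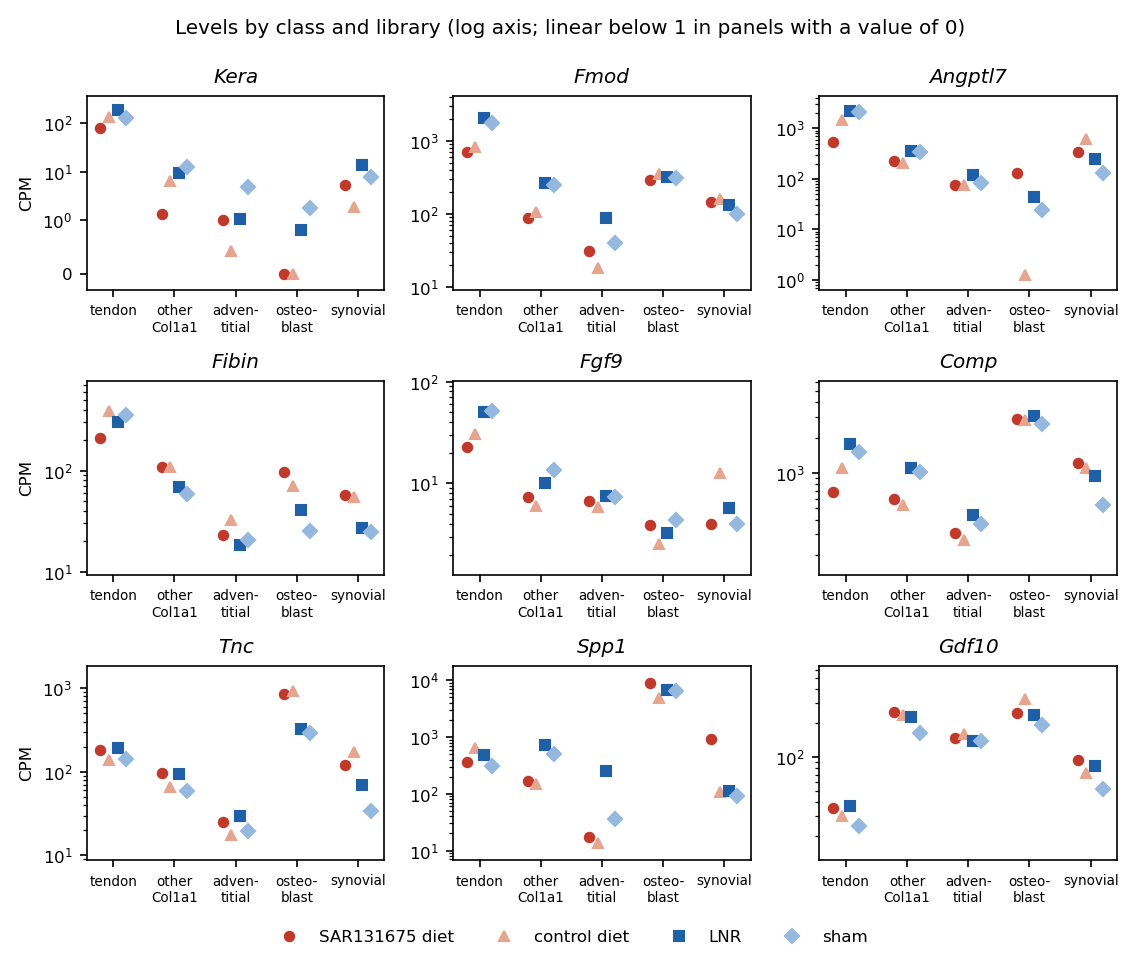
CPM of 9 genes in the 5 classes of Col1a1 cells, 1 point per library, on log axes that turn linear below 1 where a panel holds a 0. Kera, Fmod, Fibin and Fgf9 were highest in the tendon cells of each library, Comp, Tnc and Spp1 in the osteoblast lineage cells, and Gdf10 was lowest in the tendon cells.

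Of the 17 tendon genes, chosen with earlier results of these data known, 16 could be tested. Against adventitial fibroblasts 14 were called higher and 0 lower, where 4.56% and 3.19% of all genes were, with a median log2 fold of 3.52 where that of all genes was -0.01. Against the unnamed Col1a1 cells 11 were called higher and 0 lower (median 1.35), where 0.666% and 1.55% of all genes were, and against synovial lining cells 11 and 0 (median 2.17), where 6.71% and 4.4% were. Against osteoblast lineage cells the list was divided, with 8 called higher and 3 lower (median 1.34), where 5.7% and 4.13% of all genes were. These shares of all genes are the background for every list below. Wif1, a secreted inhibitor of Wnt ligands, was higher against all 4 classes, by 3.53, 2.10, 1.10 and 3.11 against adventitial, osteoblast lineage, unnamed and synovial lining cells. Comp stood at 686, 1113, 1781 and 1495 CPM in tendon cells and at 2867, 2807, 3064 and 2633 in osteoblast lineage cells, a log2 fold of -1.25 (adjusted p = 0.003). Tnc, the tenascin C gene of injured and loaded matrix, was lower by the same comparison at -1.79 (adjusted p = 0.00081), with tendon values of 181, 138, 195 and 143 CPM. Comp had a UMI in 28.9% of members and 31.0% of adventitial fibroblasts with SAR131675, and in 38.8% and 30.0% with control diet. The immediate early factors Egr1 and Egr2, which act on tendon collagen genes, were not called higher against any class, and Egr2 was called lower against osteoblast lineage cells at -1.01 (adjusted p = 0.011).

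Among 20 collagen genes other than Col1a1, 7 were called higher and 1 lower against adventitial fibroblasts, 5 and 0 against the unnamed Col1a1 cells, 14 and 0 against synovial lining cells, and 8 and 2 against osteoblast lineage cells. Col11a1, a fibril-nucleating collagen, had log2 folds of 4.27 (adjusted p = 2.1e-10), 2.06 (adjusted p = 1.7e-06) and 3.38 (adjusted p = 1.5e-09) against adventitial, unnamed and synovial lining cells. Col12a1, a collagen on the fibril surface, followed with 2.86, 1.71 and 3.19, and 0.20 (adjusted p = 0.63) against osteoblast lineage cells, which was not a call. Col14a1 was the collagen called lower against adventitial fibroblasts (-1.04 (adjusted p = 0.0077)). Col3a1 differed from adventitial fibroblasts by 0.25 (adjusted p = 0.4), also not a call. Of 15 proteoglycans, 7 were called higher against adventitial fibroblasts, 7 against the unnamed Col1a1 cells and 10 against synovial lining cells, with 0 lower in each, and 7 higher and 2 lower against osteoblast lineage cells. Decorin, encoded by Dcn, stood at 12247, 16569, 17434 and 15872 CPM in members and was not called against adventitial (0.21 (adjusted p = 0.53)) or synovial lining cells (0.54 (adjusted p = 0.053)).

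Of 18 cytokine and chemokine genes tested, 0 were called higher and 9 lower in tendon cells than in adventitial fibroblasts, and 0 and 5 against the unnamed Col1a1 cells. C3, the central complement component, differed by -2.23 (adjusted p = 8.9e-06) and -1.69 (adjusted p = 0.00094), and Cxcl12, a chemokine that retains hematopoietic cells, by -1.67 (adjusted p = 0.00011) and -1.41 (adjusted p = 0.0029). Against osteoblast lineage cells 4 were called higher and 0 lower, and against synovial lining cells 3 and 3. Of 14 genes of VEGF signaling and lymphatic guidance, 1 was called higher and 0 lower against adventitial fibroblasts, 3 and 2 against osteoblast lineage cells, 0 and 3 against the unnamed Col1a1 cells, and 4 and 1 against synovial lining cells. Vegfc was called higher than in osteoblast lineage (1.05 (adjusted p = 0.017)) and synovial lining cells (1.31 (adjusted p = 0.00099)), and Ccbe1, whose product aids the processing of VEGF-C, was called higher against adventitial (1.37 (adjusted p = 0.00035)), osteoblast lineage (4.74 (adjusted p = 6.5e-07)) and synovial lining cells (3.01 (adjusted p = 8.7e-07)). Angpt2, which encodes an angiopoietin of vessel remodeling, was called lower than in osteoblast lineage (-2.22 (adjusted p = 0.0023)) and unnamed Col1a1 cells (-2.61 (adjusted p = 0.00055)). Flt4, which encodes VEGFR3, the target of SAR131675, had a UMI in 3, 1, 2 and 1 members, at 0.526, 1.10, 2.16 and 0.37 CPM. Of 14 osteoclast regulators, 1 was called higher and 5 lower against adventitial fibroblasts (median -0.74), 1 and 3 against osteoblast lineage cells (median 0.63), 0 and 2 against the unnamed Col1a1 cells (median -0.15), and 2 and 1 against synovial lining cells (median 0.58). Tnfsf11, which encodes RANKL, had a UMI in 9, 3, 11 and 14 members and was lower than in osteoblast lineage cells by -3.05 (adjusted p = 0.012), and its decoy receptor gene Tnfrsf11b by -2.57 (adjusted p = 1.6e-05). Spp1 (osteopontin) and Mmp13 (collagenase 3) were also lower than in osteoblast lineage cells, by -3.81 (adjusted p = 0.0036) and -5.90 (adjusted p = 0.002).

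Of 12 genes of elastic fibers and microfibrils, 9 were called higher and 0 lower than in osteoblast lineage cells (5.7% and 4.13% of all genes), 7 and 0 than in synovial lining cells (6.71% and 4.4%), 3 and 3 than in adventitial fibroblasts (4.56% and 3.19%) and 2 and 0 than in the unnamed Col1a1 cells (0.666% and 1.55%). Of 12 genes of enthesis and cartilage, 0 were called higher and 7 lower than in osteoblast lineage cells, 4 and 3 than in synovial lining cells, 4 and 1 than in adventitial fibroblasts and 2 and 1 than in the unnamed Col1a1 cells. Of 15 Wnt antagonists and targets, 10 were called higher and 1 lower than in synovial lining cells, 7 and 1 than in adventitial fibroblasts and also than in osteoblast lineage cells, and 3 and 1 than in the unnamed Col1a1 cells. Sfrp2 was called higher against all 4 classes, with a smallest log2 fold of 1.46 against adventitial fibroblasts. Of 11 sheath and progenitor genes, 4 were called higher and 0 lower than in osteoblast lineage cells, 3 and 0 than in synovial lining cells, 0 and 0 than in the unnamed Col1a1 cells and 0 and 3 than in adventitial fibroblasts. The 3 were the progenitor markers Cd34 (-1.84 (adjusted p = 0.00021)) and Ly6a (-1.30 (adjusted p = 2.0e-06)) and the sheath marker Tppp3 (-1.23 (adjusted p = 5.1e-05)). Of 19 transcription factors of limb position, 6 were called higher and 2 lower than in osteoblast lineage cells, 2 and 0 than in adventitial fibroblasts, 2 and 1 than in synovial lining cells and 0 and 0 than in the unnamed Col1a1 cells. The immediate early list had 1 gene called, lower, against osteoblast lineage cells, 1 against synovial lining cells and 0 against the other 2 classes.

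The promoters of Tnmd, Fmod and Kera are shown for a marker gene of the rule and for the 2 proteoglycan genes described first among those called higher against all 4 classes. Each runs from 250 bases before to 50 after the gene's start in RefSeq on GRCm38.p6, which is not the build of the counts, and lies on the plus strand: chrX:133850758-133851057 for Tnmd, chr1:134037004-134037303 for Fmod and chr10:97606955-97607254 for Kera. Capitals mark CANNTG, the E-box letters that basic helix-loop-helix factors such as scleraxis bind, read on both strands at once since the motif is its own reverse complement in form.
Tnmd: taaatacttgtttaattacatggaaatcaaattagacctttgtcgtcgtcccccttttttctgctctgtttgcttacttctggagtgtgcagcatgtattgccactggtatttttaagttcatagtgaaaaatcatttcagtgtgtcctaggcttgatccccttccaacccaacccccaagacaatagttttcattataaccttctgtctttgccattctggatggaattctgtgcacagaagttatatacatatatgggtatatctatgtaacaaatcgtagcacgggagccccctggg
Fmod: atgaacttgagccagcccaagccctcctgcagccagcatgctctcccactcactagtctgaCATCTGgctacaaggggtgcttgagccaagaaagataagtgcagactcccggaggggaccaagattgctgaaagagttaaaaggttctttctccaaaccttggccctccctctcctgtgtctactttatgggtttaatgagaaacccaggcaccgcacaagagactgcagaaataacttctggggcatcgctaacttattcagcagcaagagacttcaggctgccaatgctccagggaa
Kera: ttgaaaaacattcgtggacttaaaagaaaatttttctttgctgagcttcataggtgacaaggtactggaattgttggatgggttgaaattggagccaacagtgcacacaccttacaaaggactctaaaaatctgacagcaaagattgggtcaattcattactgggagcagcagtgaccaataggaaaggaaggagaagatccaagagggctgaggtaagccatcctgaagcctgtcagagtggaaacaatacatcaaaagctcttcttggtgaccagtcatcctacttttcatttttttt
Fmod held 1 match, CATCTG, and Tnmd and Kera held 0. Of 32851 promoters of this length, 23756 (72.3%) held at least 1, so the match describes the sequence and marks no site. Scx and Comp had no entry in the promoter table.

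Members with and without a Scx UMI were then compared, a split chosen after the data were seen. Scx is a gene of the rule, so members without a Scx UMI held at least 2 of Tnmd, Mkx and Thbs4 while those with one needed only 1 of them, and the groups differ by construction in these markers. They numbered 120 and 375, 68 and 290, 189 and 222, and 168 and 226 in the 4 libraries. The median depth was 11545, 10172, 4801 and 4359 UMIs with a Scx UMI and 11212, 9312, 4735 and 5367 without. By edgeR's quasi-likelihood test on 8 sums, with the library as a block, 128 of 10069 genes (1.27%) were called higher and 168 (1.67%) lower in members with a Scx UMI. Without the control diet library the counts were 50 and 129, without the SAR131675 library 52 and 157, and with no library block 0 and 12, where 271 of the 10069 genes were higher and 270 lower at an unadjusted p under 0.05. Genes that do not differ pass such a limit at a rate near 0.05. Among members with at least 2 of Tnmd, Mkx and Thbs4 in both groups, 60, 45, 101 and 74 cells with a Scx UMI, 117 of 9180 genes were called higher and 142 lower, and 83 of the 128 and 109 of the 168 were called there too. A Scx UMI was also found in some keratinocyte-marked cells and, less often in the diet pair, in adventitial fibroblasts, as given above. How far such background enters the split was not tested. By the test of all members, Bop1, within which Scx lies, was at 0.50 (adjusted p = 0.17), not a call.

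Of the tendon list, 8 of 16 genes were called higher and 1 lower in the members with a Scx UMI, with a median log2 fold of 0.93 where that of all genes was 0.01. Of 15 proteoglycans 6 were called higher and 0 lower (median 0.67), while of 19 collagens 0 were called higher and 1 lower (median -0.30). Col1a1, a gene of the rule, was at -0.36 (adjusted p = 0.094), Col1a2 at -0.39 (adjusted p = 0.084) and Col11a1 at -0.64 (adjusted p = 0.018), none past the fold of a call. Spp1 stood at 87.5, 239, 239 and 117 CPM without and 1237, 2258, 729.8 and 604 with a Scx UMI, higher in 4 of 4 libraries, a log2 fold of 2.84 (adjusted p = 0.001). Epyc, which encodes epiphycan, stood at 35.4, 59.9, 89.9 and 63.03 and 146, 406, 341 and 240.5 (2.23 (adjusted p = 0.0001)). Fmod stood at 373, 412, 1843 and 1188 without and 1681, 2521, 2273 and 2591 with (1.61 (adjusted p = 0.016)), so its difference was large in the diet pair and small in the LNR library. Comp (1.68 (adjusted p = 0.0027)), Kera (1.85 (adjusted p = 0.03)), Chad (1.62 (adjusted p = 0.0014)), Cilp2 (1.86 (adjusted p = 0.0075)) and Angptl7 (1.61 (adjusted p = 0.0031)) went the same way. Of 33 genes of the TGF beta, BMP and GDF list 4 were called higher and 1 lower, Bmp6 at -1.27 (adjusted p = 0.038). Among signaling genes named after their values were seen, the Hedgehog target Gli1 was lower at -1.31 (adjusted p = 0.021), and Bmpr1b, a BMP receptor, was higher at 2.04 (adjusted p = 0.0013), Fgf18 at 2.16 (adjusted p = 0.006), Ltbp2, a latent TGF beta binding protein, at 1.90 (adjusted p = 0.0032), and Inhba, the activin A subunit, at 1.05 (adjusted p = 0.0058). With at least 2 of Tnmd, Mkx and Thbs4 in both groups, Ltbp2 (1.56 (adjusted p = 0.083)) and Inhba (0.51 (adjusted p = 0.12)) were not called. Gli1 (-1.24 (adjusted p = 0.078)) and Bmp6 (-1.26 (adjusted p = 0.084)) were not called there either, while Fmod (2.05 (adjusted p = 0.0022)) and Kera (2.65 (adjusted p = 0.003)) were. Tnmd itself, a marker of the rule, stood at 620.3, 532, 578 and 446 without and 489, 568, 280.2 and 287 with a Scx UMI.

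Members without a Scx UMI were higher in another set of genes. Adamts18, a secreted protease, stood at 119.9, 65.4, 25.9 and 24.6 CPM without and at 1.45, 0, 0 and 0 with a Scx UMI, and Ednrb at 232, 268, 117 and 94.2 and 3.63, 15.4, 2.16 and 1.93. The groups did not overlap for either gene, and the log2 folds were -6.88 (adjusted p = 2.9e-05) and -5.12 (adjusted p = 2.9e-05), the first with 3 sums at 0 and therefore set in part by the prior count of the fit. Lrrc15, a membrane protein of activated fibroblasts, stood at 438, 353, 373 and 301 and 57.3, 33.6, 67 and 67.6 (-2.63 (adjusted p = 0.0001)). The fibrillin gene Fbn2 (-2.53 (adjusted p = 0.00093)), Mmp11 (-3.23 (adjusted p = 0.00016)), Col24a1 (-2.07 (adjusted p = 0.0016)) and the muscle-type genes Acta2 (-1.95 (adjusted p = 0.028)), Tagln (-2.36 (adjusted p = 0.0038)), Actg2 (-3.96 (adjusted p = 0.0008)), Myh11 (-2.52 (adjusted p = 0.013)) and Tnnt1 (-4.74 (adjusted p = 0.00076)) went the same way, as did the mural cell gene Rgs5 (-3.19 (adjusted p = 0.0022)). These genes were named after their values were seen and form no fixed list. Of the marker genes used to count mural-marked members, Rgs5, Myh11, Mcam (-2.79 (adjusted p = 0.0041)) and Notch3 (-1.59 (adjusted p = 0.01)) were called lower. The mural gene Pdgfrb, not among those markers, was at 0.11 (adjusted p = 0.66) and was not called. At least 3 mural markers at 2 or more UMIs were held by 10, 6, 3 and 4 members. Without members that carried markers of another class, the counts of genes called higher and lower with a Scx UMI were 156 and 175. Acta2 (-1.46 (adjusted p = 0.022)), Tagln (-1.33 (adjusted p = 0.012)), Actg2 (-4.27 (adjusted p = 8.8e-05)) and Tnnt1 (-4.86 (adjusted p = 0.00015)) were called lower there as well, while Myh11 and Rgs5 did not pass the filter on low counts.

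**Figure D3:**
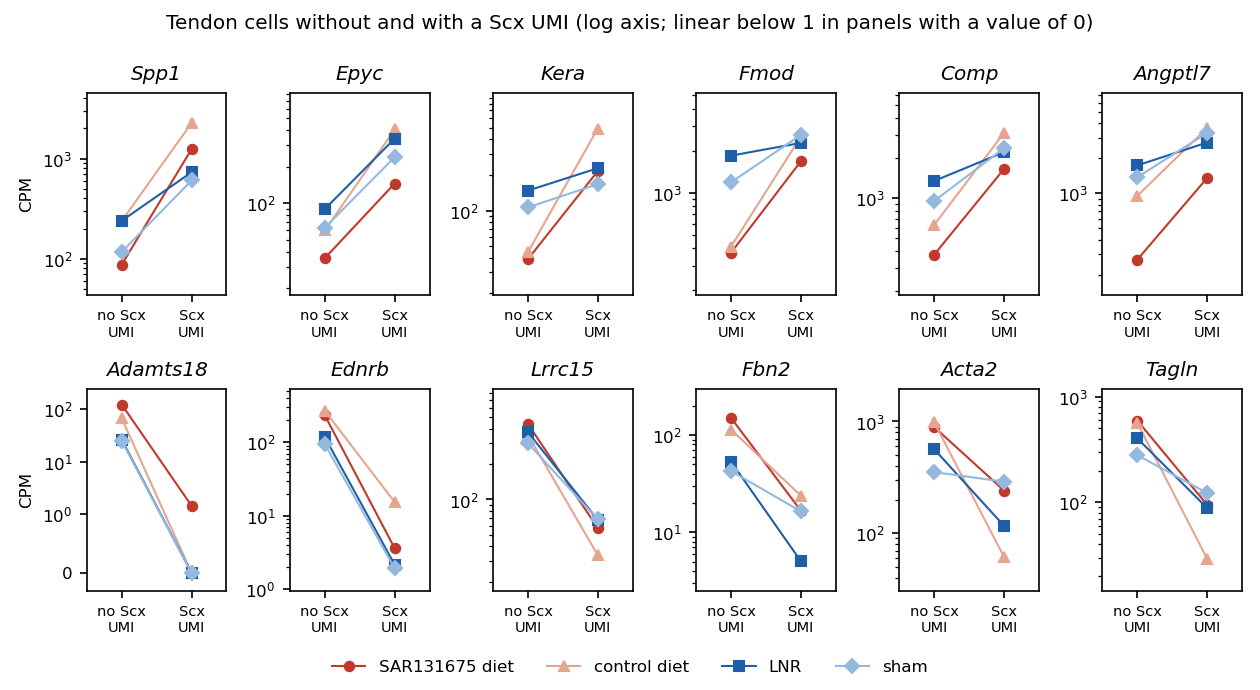
CPM in the tendon cells of each library without (left point) and with (right point) a Scx UMI, on log axes that turn linear below 1 where a panel holds a 0. The upper 6 genes were higher with a Scx UMI in the 4 libraries and the lower 6 were higher without one.

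The SAR131675 diet was given in the study to inhibit VEGFR3, and with it lymphatic growth, in the regrowing digit. With 1 library per diet the ratios describe those 2 libraries. Among 9206 genes with at least 100 UMIs in the pair, 50 (0.543%) had a log2 ratio of at least 1 and 41 (0.445%) of at most -1, and the median was 0.01. Of the same genes 4799 were higher and 4407 lower, and the interval lay above 0 in 1288 (14%) and below 0 in 1126 (12.2%), the background for the lists of this pair. An interval narrows as the UMIs of a gene rise, so lists of abundant genes exclude 0 more easily than this background does. Where a range follows the median of a list, it is the range over the alternatives tried, since several medians changed sign. Several genes with the most extreme ratios had their UMIs in few cells. Ccl21a, a chemokine of lymphatic vessels, had 94.4% of its control diet UMIs in 1 member. The hemoglobin genes Hbb-bt, Hba-a1, Hba-a2 and Hbb-bs were 4 of the 8 with the highest ratios, and their ratios turned negative without members carrying markers of another class. Rgs5, Krt10, Krt2, Hrnr, Wfdc21, Wfdc17, Dsc1 and Dsg1a were past the 2-fold line downward in this pair and in the LNR pair, and Hbb-bt, Hbb-bs, Hba-a1, Hba-a2 and Mmp13 upward in both, out of 6079 genes tested in both pairs. Fabp4 and Ccl21a were past it in opposite directions. With LNR, however, Fabp4 turned to 3.66 in members with 3 or more markers, and Ccl21a to -1.21 without its highest member in each library. Without members carrying markers of another class, Krt10 (0.43), Krt2 (0.29), Hrnr (0.52), Wfdc21 (0.42), Dsg1a (0.083) and Ccl21a (0.67) turned positive in this pair, and in the LNR pair Rgs5 (2.67), Wfdc17 (0.29) and Krt10 (0.023) turned positive and Hbb-bt (-0.26) negative. Mmp13 was at -0.85 in this pair in the thinned cells.

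Of the 16 genes tested of the tendon list 12 were lower and 4 higher with SAR131675, the interval lay below 0 in 10 and above 0 in 2, and the median log2 ratio was -0.20 (-0.73 to -0.08). Without members carrying markers of another class, 125 and 46 cells, 10 were lower and 6 higher (median -0.08), and in members with 3 or more markers 13 were lower and 2 higher (median -0.73). Angptl7 stood at 531 against 1479 CPM, a log2 ratio of -1.48 (-1.54 to -1.41), with a UMI in 85 and 97 members. The ratio was -1.43 in members with a Scx UMI, -1.82 in those without, 0.13 in the unnamed Col1a1 cells, 0.03 in adventitial fibroblasts, -0.86 in synovial lining cells and 6.68 (4.18 to 12.0) in osteoblast lineage cells, the last from 199 UMIs against 1. Comp stood at 686 against 1113 (-0.70 (-0.76 to -0.63)) and had ratios of 0.19 in unnamed Col1a1 cells, 0.03 in osteoblast lineage cells, 0.20 in adventitial fibroblasts and 0.13 in synovial lining cells. Fibin stood at 211 against 389 (-0.89 (-0.998 to -0.77)), Kera at 81.6 against 133 (-0.70 (-0.89 to -0.51)) and Fmod at 689 against 827 (-0.26 (-0.33 to -0.19)). Tnc and Ecrg4 went the other way, at 0.39 (0.23 to 0.54) and 0.43 (0.34 to 0.53).

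Of 15 proteoglycans 13 were lower and 2 higher, with a median of -0.21 (-0.43 to -0.08). Decorin stood at 12247 against 16569 CPM (-0.44 (-0.45 to -0.42)), Prelp at 292 against 415 (-0.50 (-0.61 to -0.40)) and Epyc at 62.1 against 128 (-1.04 (-1.24 to -0.84)), while lumican, encoded by Lum, stood at 2166 against 1755 (0.30 (0.26 to 0.35)). Of 12 genes of elastic fibers and microfibrils 10 were higher and 2 lower, with the interval above 0 in 8 and below 0 in 1 and a median of 0.11. The collagens were divided, with 10 higher and 9 lower and a median of 0.01 (-0.05 to 0.13). Col1a2 and Col3a1 were at 0.09 (0.07 to 0.11) and 0.15 (0.13 to 0.18). Of the matricellular genes 12 of 17 were lower (median -0.14, -0.48 to -0.06), among them Thbs2 (-0.48 (-0.57 to -0.39)), Tnxb (-0.56 (-0.67 to -0.45)), Mgp (-0.56 (-0.62 to -0.51)) and Ccn2, a connective tissue growth factor (-0.54 (-0.66 to -0.43)), while Postn was at 0.35 (0.29 to 0.40).

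Of the immediate early genes, which respond within minutes to stress and to tissue digestion, 17 of 19 were lower with SAR131675 and 2 higher, with a median of -0.19 (-0.52 to -0.10). In the LNR pair 14 of 19 were higher and 5 lower, with the interval above 0 in 11 and below 0 in 2 and a median of 0.18 (-0.02 to 0.27), but 8 of 17 were higher and 9 lower in the thinned cells. With SAR131675 Fos was at -0.34 (-0.40 to -0.27), Jun at -0.34 (-0.42 to -0.25) and Atf3 at -0.86 (-1.01 to -0.71). Of 12 cytokine and chemokine genes 9 were lower and 3 higher (median -0.14, -0.37 to 0.0006), but in members with Col1a1 at 20 or more UMIs 5 were lower and 6 higher. Cxcl1, a neutrophil chemokine, stood at 53.5 against 142 CPM (-1.41 (-1.62 to -1.20)) with a UMI in 56 and 60 members, and Ccl7 at 32.99 against 67.4 (-1.03 (-1.31 to -0.75)). Ccl2 stood at 8.77 against 54.99 (-2.65 (-3.13 to -2.19)), but 57% of its control diet UMIs were in 1 member and the ratio was -1.61 with the highest member of each library left out. It was 0.77 in the thinned cells and 0.74 in members with 3 or more markers, so its sign changed with these choices. C3 was at -0.84 (-1.04 to -0.64) and Adm, the gene of the vessel-acting peptide adrenomedullin, at 9.13 against 27.8 (-1.61 (-2.12 to -1.11)), in 36 and 42 members.

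Sfrp2, a secreted Wnt modulator, was higher with SAR131675 at 365 against 119.6 CPM (1.61 (1.46 to 1.76)), in 90 and 42 members, and its ratio was 5.04 with and 0.60 without a Scx UMI. Edn3, an endothelin, stood at 28.6 against 7.70 (1.89 (1.31 to 2.53)). Of 13 cell division genes 9 were higher and 4 lower (median 0.62). Of those higher 6 were past 2-fold, among them Cenpf (2.97 (2.05 to 4.07)), Top2a (1.41 (0.92 to 1.93)) and Mki67 (1.24 (0.77 to 1.74)). Without members carrying markers of another class, only 3 of these genes could be tested, 1 higher and 2 lower (median -0.31), with Top2a at -0.57 (-1.35 to 0.20), and Mki67 was at -0.0053 in the thinned cells. Members with 3 or more of 10 division genes numbered 22 of 495 (4.44%, 2.81 to 6.65) and 10 of 358 (2.79%, 1.35 to 5.08), whose intervals overlap. The share was higher with SAR131675 in the other 4 classes too, as in the unnamed Col1a1 cells with 3.72% and 3.45%. The lymphatic growth factor genes Vegfc and Vegfd stood at 86.5 against 112 (-0.37 (-0.56 to -0.17)) and 42.1 against 33.5 (0.33 (0.01 to 0.65)).

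LNR, the study's surgical approach, removed lymph nodes rather than inhibiting VEGFR3, again with 1 library per condition. Among 6193 genes 28 (0.452%) had a log2 ratio of at least 1 and 33 (0.533%) of at most -1, and the median was 0.02. Of these genes 3317 were higher and 2876 lower, and the interval lay above 0 in 541 (8.74%) and below 0 in 418 (6.75%), the background for the lists of this pair, with the same limit for abundant genes. The keratinocyte genes Wfdc21, Hrnr, Flg and Lor were among the 8 lowest, beside summed keratinocyte marker levels of 5026 and 8266 CPM. Flg turned to 0.46 (0.24 to 0.69) with no upper limits on genes and UMIs, and Hrnr to 0.82 (-1.98 to 4.29) in the thinned cells. Mucl1 had UMIs in 1 LNR member and was at 0 in sham. Ccl21a had 97.6% of its LNR UMIs in 1 member.

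Among genes with a UMI in at least 10% of members of either library, 8 were past 2-fold upward, and Mmp3, Timp1, Inhba and Piezo2 were among them. Of 14 protease and inhibitor genes 13 were higher and 1 lower (median 0.25, 0.09 to 0.26), and 3 were past 2-fold. The median was 0.11 without members carrying markers of another class and 0.09 in the thinned cells. With SAR131675 9 of 16 were higher and 7 lower (median 0.05, -0.01 to 0.08). Timp1, an inhibitor of metalloproteinases, stood at 732 against 358 CPM (1.03 (0.92 to 1.14)), in 133 and 116 members. Mmp3 stood at 396 against 154 (1.36 (1.20 to 1.53)) in 66 and 53 members, and at -0.39 (-0.78 to -0.0034) in the thinned cells. Mmp13 stood at 424 against 76.3 (2.48 (2.26 to 2.70)) in 18 and 11 members, with 90.2% and 97.1% of its UMIs in the highest 5 cells. Mmp3 had a ratio of 1.00 in the unnamed Col1a1 cells, 1.05 in adventitial fibroblasts, 1.48 in synovial lining cells and -1.02 in osteoblast lineage cells.

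Of 29 genes of the TGF beta, BMP and GDF list 22 were higher and 7 lower, with the interval above 0 in 15 and below 0 in 0, and a median of 0.19 (0.08 to 0.27), which was 0.08 in the thinned cells. With SAR131675, 14 of 33 were higher and 19 lower, with the interval above 0 in 7 and below 0 in 13 and a median of -0.11 (-0.37 to 0.03), but in the thinned cells 10 of 19 were higher and 9 lower (median 0.03). With LNR Inhba stood at 199 against 87.7 CPM (1.18 (0.96 to 1.41)), in 109 and 79 members, with ratios of 0.82 in the unnamed Col1a1 cells, 1.31 in adventitial fibroblasts, 2.15 in osteoblast lineage cells and 2.46 in synovial lining cells. Ltbp2 stood at 43.5 against 21.1 (1.05 (0.58 to 1.53)), Bmp4 at 138 against 96.98 (0.51 (0.28 to 0.74)) and Gdf10 at 37.1 against 24.4 (0.60 (0.14 to 1.07)). Piezo2, a stretch-gated channel, stood at 26.3 against 11.8 (1.15 (0.53 to 1.80)). Of 12 osteoclast regulators 9 were higher and 3 lower (median 0.37, 0.05 to 0.48), and the median was 0.20 without members carrying markers of another class and 0.15 over the 5 genes tested in the thinned cells. With SAR131675, 3 of 10 were higher and 7 lower, with the interval below 0 in 5 and above 0 in 2, 2 past 2-fold downward and a median of -0.22 (-0.71 to 0.05), but in the thinned cells 3 of 5 were higher and 2 lower (median 0.05). With LNR Csf1, the macrophage growth factor, stood at 115 against 87.4 (0.40 (0.15 to 0.65)) in 180 and 152 members. Il11 (2.06 (1.49 to 2.66)) and Tnfsf11 (0.82 (0.24 to 1.43)) were higher too, but had a UMI in only 14 and 13 and 11 and 14 members. The interferon-responsive genes Ifitm3 and Irf1 were at 0.38 (0.30 to 0.46) and 0.37 (0.12 to 0.62). Of the interferon-stimulated list 4 genes could be tested with LNR, 4 higher and 0 lower (median 0.38). With SAR131675, 3 of 10 were higher and 7 lower, with the interval above 0 in 0 and below 0 in 4 (median -0.29).

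Of the tendon list 12 of 15 genes were higher with LNR and 3 lower, with a median of 0.12 (-0.06 to 0.17) and none past 2-fold. Kera stood at 188 against 129.6 CPM (0.53 (0.34 to 0.73)), Fmod at 2058 against 1726 (0.25 (0.20 to 0.31)), Comp at 1781 against 1495 (0.25 (0.19 to 0.31)) and Tnc at 195 against 143 (0.46 (0.26 to 0.65)), while Chad and Fibin were at -0.18 (-0.26 to -0.09) and -0.22 (-0.36 to -0.09). Of 18 collagens 16 were higher, with a median of 0.19 (-0.04 to 0.22), among them Col6a1 (0.31 (0.23 to 0.39)) and Col6a3 (0.35 (0.25 to 0.45)), chains of the collagen around cells. Markers of another cell class were held by 68 LNR and 87 sham members, and without these members the tendon list was 6 higher and 9 lower (median -0.06) and the collagens 8 higher and 10 lower (median -0.02), while in the thinned cells the tendon list was 7 higher and 7 lower and the collagens 7 higher and 8 lower. Of 15 proteoglycans 12 were higher and 3 lower with LNR (median 0.20), and without those members 10 higher and 5 lower (median 0.05), where the TGF beta list was 17 higher and 10 lower. Dividing members numbered 17 of 411 with LNR (4.14%, 2.43 to 6.54) and 29 of 394 with sham (7.36%, 4.98 to 10.4), whose intervals overlap. The share was higher in sham than in LNR in the other 4 classes too, with 3.07% and 42.5% in synovial lining cells. Of 14 cell division genes 6 were higher and 8 lower with LNR, with the interval above 0 in 5 and below 0 in 3, none past 2-fold and a median of -0.04, but with no upper limits on genes and UMIs 12 of 16 were higher and 4 lower (median 0.15).

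**Figure D4:**
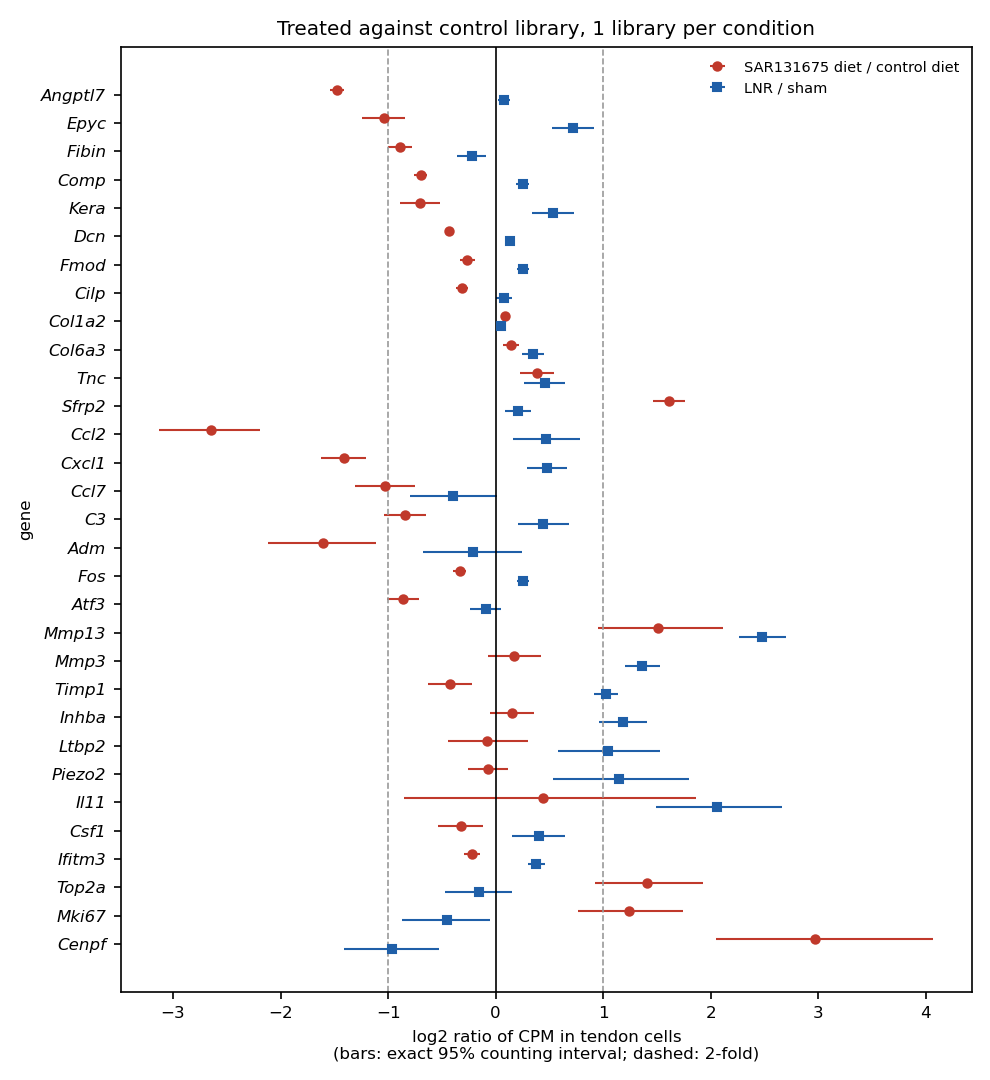
Log2 ratios of CPM in tendon cells for 31 named genes, SAR131675 against control diet (circles) and LNR against sham (squares), with exact 95% counting intervals and dashed lines at 2-fold. Angptl7, Comp, Fibin, Kera and Epyc lay below 0 in the diet pair, and Mmp3, Timp1, Inhba and Piezo2 lay above the 2-fold line in the LNR pair.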

How the data were processed

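The deposited files hold raw UMI counts of 33696 genes per 10x 3′ barcode, which the authors made with Cell Ranger on GRCm39. The submitters' processing notes give version 6.1.2, while the file headers give 6.1.2 for the LNR pair and 8.0.1 for the diet pair. No doublet caller was run here. Members were chosen by the rule in Python 3.11.15 and their counts summed per library. Levels are CPM, scaled to the members' summed UMIs, with exact Poisson 95% intervals. Ratios within a pair carry exact conditional 95% intervals, for genes with at least 100 UMIs in the pair. Classes were compared by edgeR 4.0.16 (TMM, filterByExpr, library as block, Benjamini-Hochberg adjustment over all genes tested), with DESeq2 1.42.0 as an alternative, after a test on simulated data. Sums of fewer than 20 cells were left out. Genes were named by the rule, by list, as the 8 largest ratios each way per pair, and as the 15 highest and 10 lowest against all 4 classes, and Scx split genes after their values were seen. One gene that the rule names is not reported here. The members and lists were chosen with earlier results of these data known. With the library as a block, the p-values weigh a difference between groups of cells against how that difference varied from library to library. Each library is a pool of mice under another condition, so they do not measure the spread between animals. The Scx split with its alternatives, the fits without each gene's highest member and the 10% detection limit were added after seeing the data.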

Additional observations from a re-analysis of the deposited data

How the results depend on the processing

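Of genes past 2-fold for SAR131675 against control diet, 50 higher and 41 lower, the counts changed by over 1.5 times to 126 higher and 64 lower (no upper limits on genes and UMIs), 6 higher and 21 lower (thinned to 3000 UMIs), 62 lower (3 or more markers), 28 higher (without members with markers of another class), 136 higher and 82 lower (at least 50 UMIs in the pair), 22 higher and 27 lower (at least 200 UMIs in the pair), 27 lower (each gene without its highest member in each library) and 24 higher (genes with a UMI in at least 10% of members). Of genes past 2-fold for LNR against sham, 28 higher and 33 lower, the counts changed by over 1.5 times to 9 higher and 9 lower (thinned to 3000 UMIs), 15 lower (3 or more markers), 57 lower (Col1a1 at 20 or more UMIs), 16 higher and 9 lower (without members with markers of another class), 52 higher and 84 lower (at least 50 UMIs in the pair), 18 higher and 18 lower (at least 200 UMIs in the pair), 17 higher (each gene without its highest member in each library) and 8 higher and 10 lower (genes with a UMI in at least 10% of members). Calls against the classes changed with no library block to 261 higher against adventitial fibroblast, 216 lower against adventitial fibroblast, 4 higher against all 4 classes, 3 lower against all 4 classes, 488 higher against osteoblast lineage, 338 lower against osteoblast lineage, 11 higher against other Col1a1, 27 lower against other Col1a1, 486 higher against synovial lining and 344 lower against synovial lining. Calls against the classes changed with 3 or more markers to 29 lower against all 4 classes and 141 higher against other Col1a1. Calls against the classes changed with no filter on low counts to 396 lower against other Col1a1. Calls of the Scx split changed to 207 higher (no filter on low counts), 324 lower (no filter on low counts), 0 higher (no library block) and 12 lower (no library block). With each library left out in turn, called genes ranged over 22 to 41 higher (all 4 classes), 5 to 13 lower (all 4 classes), 35 to 91 higher (other Col1a1), 86 to 237 lower (other Col1a1) and 50 to 140 higher (the Scx split), the lowest counts of genes called higher coming without a diet library. Among named genes, log2 ratios past 2-fold for SAR131675 turned sign to 0.77 for Ccl2, -0.0053 for Mki67 and -0.85 for Mmp13 (thinned to 3000 UMIs), 0.74 for Ccl2 and 1.15 for Rgs5 (3 or more markers), 0.67 for Ccl21a, 0.46 for Dapl1, 0.083 for Dsg1a, -0.65 for Hba-a1, -0.46 for Hba-a2, -0.26 for Hbb-bs, -0.48 for Hbb-bt, 0.52 for Hrnr, 0.43 for Krt10, 0.29 for Krt2, -0.57 for Top2a and 0.42 for Wfdc21 (without members with markers of another class) and 0.50 for Hrnr (no upper limits on genes and UMIs). Those for LNR turned sign to -1.15 for Ccl21a and 0.28 for Tpsb2 (Col1a1 at 20 or more UMIs), -1.21 for Ccl21a (each gene without its highest member in each library), -0.24 for Chil1, 3.66 for Fabp4, -1.66 for H2-Eb1 and 0.34 for Rgs5 (3 or more markers), 0.46 for Flg (no upper limits on genes and UMIs), -0.49 for H2-Eb1, -0.26 for Hbb-bt, 0.023 for Krt10, 2.67 for Rgs5 and 0.29 for Wfdc17 (without members with markers of another class) and 0.82 for Hrnr and -0.39 for Mmp3 (thinned to 3000 UMIs). Lmo2 against osteoblast lineage cells was 1.40 in thinned cells. Below 2-fold, 95 ratios of named genes had an interval on one side of 0, and 62 of their 664 values under the alternatives had the other sign, 23 of them in thinned cells, 21 with 3 or more markers and 13 without members with markers of another class. The genes tested ranged from 2630 (thinned) to 11300 (no upper limits on genes and UMIs) for SAR131675, against 9206, and from 1885 (thinned) to 8704 (at least 50 UMIs) for LNR, against 6193, so the counts are not of like numbers of genes. Of the condition ratios of named genes under the alternatives, 917 lay within the main interval and 553 outside it, beside the 33 above. Of the other values of named genes, 855 stayed on their side of the threshold, 63 lost and 26 gained a call in the Scx split, and 4300, 237 and 100 did so against the classes. The log2 ratio of the shares was 0.40 for LNR with 3 or more markers, -0.11 for SAR131675 in thinned cells and -0.029 for SAR131675 without members with markers of another class. No paired analysis was possible because each condition has 1 library and the replicate number 1. The cause of these changes was not tested. With 1 library per condition, the intervals covered counting error alone.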
